A study of Homo sapiens with 17 samples.

Results

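The time course compared BJ fibroblasts on day 5 and on day 14 after induction of oncogenic RASG12V, each with proliferating cells of the same sequencing run, in RNA-Seq, in ribosome profiling (Ribo-Seq) and in translation efficiency (TE). BJ cells are human foreskin fibroblasts, immortalized here with the telomerase subunit hTERT. It was made up of 11 of the 17 samples of the series, chosen by their titles: 4 groups of RNA-Seq libraries and the same 4 groups of Ribo-Seq libraries. The pre-senescent cells (preS) expressed hTERT and a tamoxifen-inducible RASG12V and were kept in 4-OHT-Tamoxifen for 5 days, with 2 RNA-Seq libraries and 1 Ribo-Seq library. The senescent cells (S) were the same kind of cells after 14 days, with 1 library of each assay. The proliferating BJ cells grew under normal conditions, as C1 and C2 in the first run and as C3 in the second. The labels do not say whether these controls carried the inducible gene or received a vehicle. No group is described as a clone, and the 2 RNA-Seq libraries of C1 and C2, of preS and the 2 Ribo-Seq libraries of C1 and C2 each come as 1 column of the deposited table, so no column was a replicate of another.

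RAS relays growth factor signals through the RAF, MEK and ERK kinases, and ERK switches on its own inhibitors. In normal fibroblasts a permanently active RAS first drives growth signalling and then leads to senescence, a lasting arrest in which p53 and the retinoblastoma protein keep the genes for DNA replication and mitosis off, the nuclear lamina and chromatin are remodelled, and inflammatory cytokines and proteases are secreted. RNA-Seq measures the level of polyadenylated transcripts, Ribo-Seq counts the mRNA fragments that ribosomes protect, and TE is the ratio of footprints to RNA.

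Values were FPKM (fragments per kilobase of transcript, scaled to the number of mapped reads), over the whole transcript for RNA and over the coding sequence for footprints, and values under 1 had been set to a floor of 1. Below, the day 5 change is log2 of preS over the run 1 control (C1-C2), and the day 14 change is log2 of S over the run 2 control (C3). "Rose" and "fell" stand for at least 2-fold, a size and not a test, because without replicate columns there is no error estimate and no p-value. A change that starts or ends at the floor is a lower bound of its size. Day and run were confounded by design, so a difference between day 5 and day 14 cannot be told apart from a difference between runs except through the controls. The run 2 control over the run 1 control, a comparison of proliferating cells only, was at least 2-fold up for 4.66% and down for 3.05% of 8389 genes in RNA, for 10.1% and 8.32% of 8580 genes in footprints, and for 4.41% and 2.83% of 7661 genes in TE. Every result was therefore also computed as S over C1-C2, which shares its control with the day 5 change.

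The titles and the condition labels disagreed for 2 Ribo-Seq samples. The library titled S.rp carried the condition of proliferating cells and the library titled C3.rp that of senescence. The titles were used. Across 8025 genes, the RNA of S correlated better with the footprints titled S (r = 0.881) than with those titled C3 (r = 0.74), and the RNA of C3 better with the footprints titled C3 (r = 0.848) than with those titled S (r = 0.728). These correlations are across genes of single columns, which are not independent replicates, and the direction of every day 14 footprint and TE value below rests on the titles.

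All 9 fibroblast markers checked were in the table, with a summed RNA level of 6299 FPKM in C1-C2, 5792 in preS, 7473 in C3 and 5004 in S. Of these 9, 5 fell on day 5 (median -1.31) and 7 on day 14 (median -2.45), against 2% and 12.8% of all genes. Over C1-C2, 4 fell on day 14 against 17.8%. C3 stood above C1-C2 by a median of 1.84, at least 2-fold in 5 genes against 4.66% of all genes. None of the 4 epithelial and none of the 4 endothelial markers was in the table, and of the 4 leukocyte markers CD14 and CD68 were. CD14 RNA was listed at the floor in 3 columns and at 1.43 FPKM in C3. HRAS, the RAS gene of the family from which the oncogene is usually made, had RNA levels of 2415 FPKM in C1-C2, 2102 in preS, 1284 in C3 and 2087 in S. ESR1, whose hormone-binding domain makes a fused protein tamoxifen-inducible, had RNA levels of 19.2, 15.9, 102 and 144 FPKM in the same order. HRAS was thus high in controls and RAS columns alike, and neither gene's level separates the RAS columns from the controls.

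The promoters of 6 genes are shown, 3 of mitosis, a list that fell as a whole on day 14, and 3 of inflammatory genes that rose by day 14. The windows are the 250 bases before the RefSeq transcription start in build GRCh38.p14, all on the plus strand, whereas the processing notes of the expression values name hg19. The mitotic genes come first: CDC20 at chr1:43358731-43358980, PLK1 at chr16:23678639-23678888 and CCNB2 at chr15:59104896-59105145. Capitals mark TTTGAA on either strand, the core of the element called CHR (cell cycle genes homology region).
CDC20: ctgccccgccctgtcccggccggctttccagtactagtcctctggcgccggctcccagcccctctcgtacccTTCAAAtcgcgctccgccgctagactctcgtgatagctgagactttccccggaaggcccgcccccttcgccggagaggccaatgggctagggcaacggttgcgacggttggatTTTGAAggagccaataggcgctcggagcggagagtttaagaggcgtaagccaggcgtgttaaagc
PLK1: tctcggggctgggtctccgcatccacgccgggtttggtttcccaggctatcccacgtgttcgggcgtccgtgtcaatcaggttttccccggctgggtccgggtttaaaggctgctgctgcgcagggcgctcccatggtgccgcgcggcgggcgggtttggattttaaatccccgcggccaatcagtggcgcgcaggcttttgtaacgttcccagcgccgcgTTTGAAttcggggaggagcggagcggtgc
CCNB2: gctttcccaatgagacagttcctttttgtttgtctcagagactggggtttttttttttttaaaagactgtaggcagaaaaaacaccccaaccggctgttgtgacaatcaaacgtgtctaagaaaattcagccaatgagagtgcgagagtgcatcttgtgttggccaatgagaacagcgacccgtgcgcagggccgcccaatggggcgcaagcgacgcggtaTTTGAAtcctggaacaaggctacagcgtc
TTTGAA began 178 and 65 bases before the start in CDC20 and 29 bases before it in PLK1 and CCNB2. Of the 48 mitotic genes in the table, 40 had a promoter in the RefSeq set, and 22 of these (55.0%) held TTTGAA on either strand, against 13.6% of all 27305 promoters of the same length. Among DNA replication genes, 1 of 37 promoters (2.7%) held it. CCAAT, often paired with the CHR, stood in 30 of the 40 mitotic promoters (75.0%), in 21 of the 37 replication promoters (56.8%) and in 33.0% of all promoters. GCGGGAA, a common form of the E2F site, stood in 13 of 37 replication promoters (35.1%), in 4 of 40 mitotic ones (10.0%) and in 5.59% of all. Among the 6341 of 8389 genes tested in RNA that matched a promoter, 7.81% held TTTGAA, 35.6% CCAAT and 9.62% GCGGGAA, so the mitotic share of GCGGGAA was near that of the tested genes. The next 3 genes are CXCL1 at chr4:73869143-73869392, IL6 at chr7:22726950-22727199 and ICAM1 at chr19:10270870-10271119, with GGNNNTTCC, a short form of the NF-kappaB site, in capitals on either strand.
CXCL1: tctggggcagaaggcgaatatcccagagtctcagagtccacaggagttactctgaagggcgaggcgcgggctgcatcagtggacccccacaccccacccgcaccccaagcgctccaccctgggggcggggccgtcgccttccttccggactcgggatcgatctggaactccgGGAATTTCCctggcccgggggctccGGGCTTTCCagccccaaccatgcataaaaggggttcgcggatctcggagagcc
IL6: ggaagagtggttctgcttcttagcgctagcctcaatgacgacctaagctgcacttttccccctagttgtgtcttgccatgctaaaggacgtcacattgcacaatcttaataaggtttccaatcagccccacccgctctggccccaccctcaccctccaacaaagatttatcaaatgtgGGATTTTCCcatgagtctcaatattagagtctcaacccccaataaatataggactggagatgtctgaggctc
ICAM1: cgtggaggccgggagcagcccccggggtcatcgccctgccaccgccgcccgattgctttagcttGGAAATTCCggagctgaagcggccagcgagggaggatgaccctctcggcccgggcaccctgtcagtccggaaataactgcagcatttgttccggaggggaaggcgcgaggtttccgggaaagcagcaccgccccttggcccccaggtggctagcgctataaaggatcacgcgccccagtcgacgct
GGNNNTTCC began 78 bases before the start in CXCL1, where it matched both strands, and again at 53 bases, 72 bases before the start in IL6, and 186 bases before it in ICAM1, again on both strands. It stood in 17.1% of all promoters and in 20.8% of those matched to genes tested in RNA. The share was 23.1% for genes up in RNA on both days and 21.4% for those up on day 14 only. Both shares were near that of the tested genes. It was 30.0% for mitotic and 35.1% for replication genes, lists that mostly fell on day 14. RefSeq promoters matched only 7 of 9 chemokines and 5 of 8 interleukins and colony stimulating factors. Of these, 6 of 7 and 3 of 5 held the motif, numbers too small for a comparison of shares. The motifs were chosen after the values had been seen, the match of letters is a description of these windows, and binding was not measured.

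RNA changed little on day 5 and widely on day 14. Of 8389 genes with at least 5 FPKM in one of the 4 columns, 149 rose (1.78%) and 168 fell (2%) on day 5, while 621 rose (7.4%) and 1076 fell (12.8%) on day 14. The excess of falls on day 14 depended on the filter and threshold: 443 rose and 468 fell with a filter at 20 FPKM, where 48.6% of the called genes rose in place of 36.6%, and 179 rose and 595 fell at 3-fold, where 23.1% rose. Of the 621 genes that rose on day 14, 83 had risen on day 5 (13.4%), and 542 had a day 5 change of the same sign. Of the 1076 that fell, 136 had fallen on day 5 (12.6%), and 957 had the same sign. The genes that rose on day 14 had a median day 5 change of 0.40 and those that fell one of -0.41, against 0.04 for all genes. Most genes of the day 14 response thus leaned in the same direction on day 5 without reaching 2-fold.

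The classes of the time course separated early, late and opposite changes. In RNA, 83 genes rose and 136 fell on both days. Another 412 rose and 691 fell on day 14 with less than 1.5-fold on day 5. Only 36 rose and 16 fell on day 5 with less than 1.5-fold on day 14. At least 1.5-fold each way in opposite directions was seen for 46 genes, 29 up then down and 17 down then up, and in 8 of them both changes reached 2-fold. At the 2-fold threshold, the day 5 fall of NUSAP1 (52.3 to 26.1 FPKM) counted, and that of MKI67 (73.9 to 37.0 FPKM), with the same rounded change of -1.0, did not. With S over C1-C2 in place of S over C3, 1030 genes rose (12.3%) and 1494 fell (17.8%) on day 14. The members that stayed in their class were then 66 of 83, 112 of 136, 297 of 412 and 558 of 691 for the classes of both days and of day 14 only, but 15 of 36 and 10 of 16 for day 5 only and 13 of 29 and 14 of 17 for the opposite classes.

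**Figure D1:**
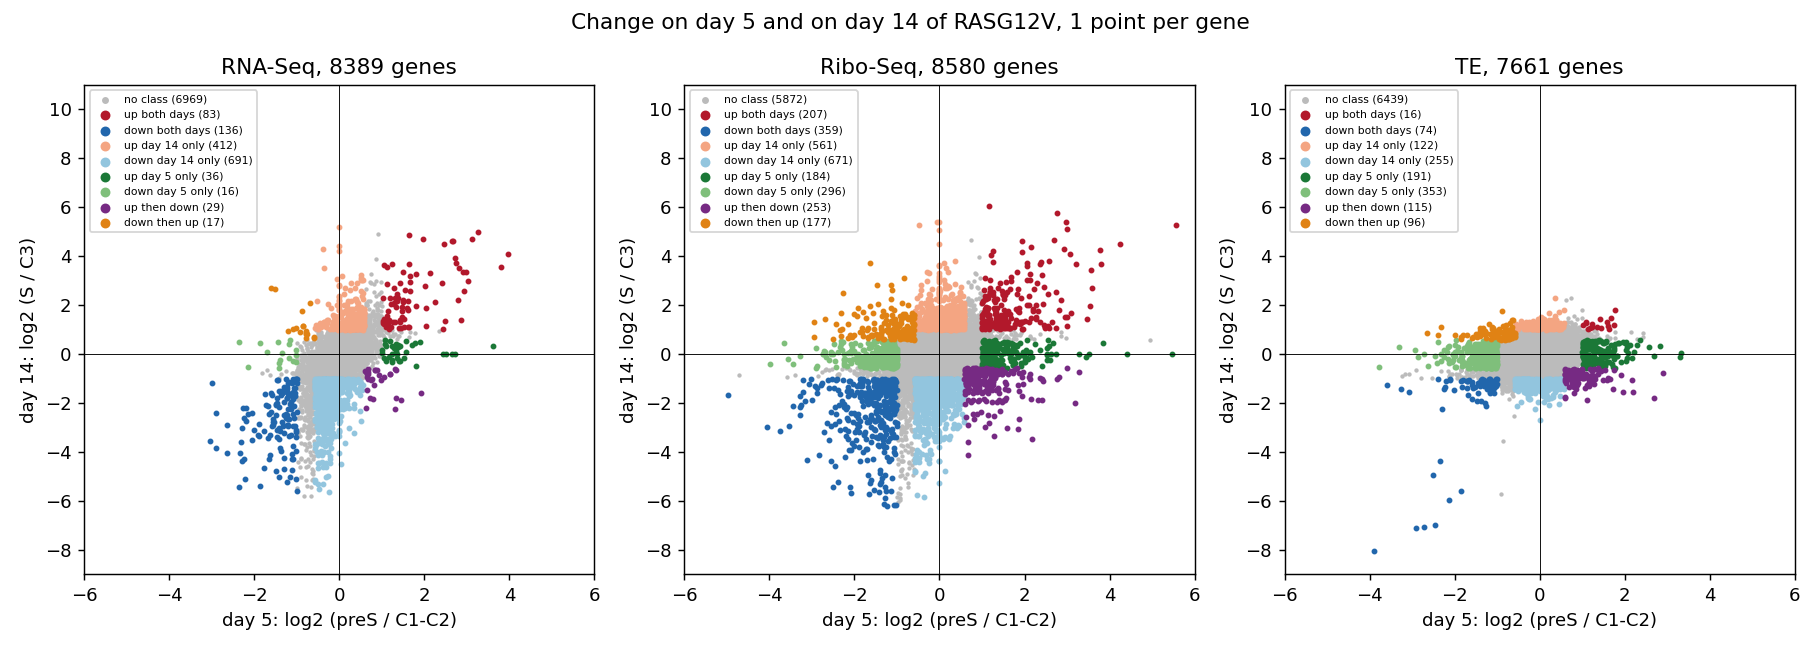
Each point is a gene, with its log2 change on day 5 on the x axis and on day 14 on the y axis, for RNA-Seq (8389 genes), Ribo-Seq (8580) and TE (7661), coloured by class. RNA points form a tall cloud, with 691 genes down and 412 up on day 14 only against 16 and 36 on day 5 only, and the lowest TE points on day 14 are histone genes.

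Genes that rose on both days included secreted hormones, protease inhibitors and cytokines. STC1, which encodes the glycoprotein hormone stanniocalcin 1, had 39.4 FPKM in C1-C2, 617 in preS, 41.1 in C3 and 700 in S. Both RAS columns stood above both controls, and the changes were 3.97 on day 5 and 4.09 on day 14. SERPINB2, an inhibitor of plasminogen activators, had 15.2, 213, 22.9 and 270 FPKM in the same order, or changes of 3.81 and 3.56. IL1B, an inflammatory cytokine, had 1.22, 10.6, 3.53 and 92.8 FPKM. Its changes of 3.12 and 4.72 differed between the days, whereas those of STC1 and SERPINB2 were within 0.25 of each other. ACPP, an acid phosphatase, rose by 3.27 on day 5 and by 4.98 on day 14. LCE2A, of the late cornified envelope family of skin, went from 48.6 to 393 FPKM on day 5 and from 18.9 to 151 FPKM on day 14. In footprints the changes of STC1 were 4.24 and 4.49, those of SERPINB2 3.80 and 3.70, those of ACPP 2.99 and 5.13 and those of IL1B 2.37 and 3.70. LCE2A rose less in footprints, by 1.74 on day 5, and its day 14 value was 0.98.

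Genes that fell on both days included proteins of the extracellular matrix and secreted regulators. DCN, the collagen-binding proteoglycan decorin, had 27.6 FPKM in C1-C2, 3.68 in preS, 164 in C3 and 11.3 in S. Each RAS column was the lower one of its run, but the 2 controls differed by more than 5-fold (2.57 on the log2 scale), so that S lay below C1-C2 by 1.29 and below C3 by 3.86. CCL2, a chemokine for monocytes, had 55.5, 7.51, 81.0 and 15.2 FPKM and lay below either control on either day. IGFBP3, which binds insulin-like growth factors, had 17.3, 2.77, 56.6 and 3.40 FPKM. EFEMP1, an elastic fibre protein, had 11.1 and 2.17 FPKM in run 1 and 43.0 in C3, and was listed at the floor in S. MASP1, a protease of the lectin pathway of complement, had 20.7, 4.12, 90.7 and 5.46 FPKM. In footprints all 5 genes fell on both days, with changes of -1.70 (MASP1) to -3.26 (CCL2) on day 5 and of -2.09 (CCL2) to -4.39 (EFEMP1) on day 14 over C3. Over C1-C2 the day 14 footprint change of DCN was -0.50, under 2-fold.

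Mitotic genes fell on day 14 without exception, and few of them had fallen on day 5. On day 14, 48 of 48 mitotic genes fell in RNA, with a median change of -4.04, against 12.8% of all genes and a median of 0.01. On day 5, 5 of 48 fell against 2% of all genes, the median was -0.56, and 47 of the 48 were below 0. Of the 50 genes on the list, 48 were in the table. Members listed at the floor in S have day 14 changes that are lower bounds in size. CDC20, which activates the anaphase-promoting complex, had 215 FPKM in C1-C2, 153 in preS, 86.2 in C3 and 2.19 in S. Only S stood apart from the other columns, with a day 14 change of -5.30 and a day 5 change of -0.49. BIRC5, survivin, had 82.0, 59.0, 49.0 and 1.06 FPKM. The kinase AURKB had 47.0, 37.6 and 32.8 FPKM and was listed at the floor in S. PBK, another mitotic kinase, and KIAA0101, which binds PCNA, were listed at the floor in S after 32.1 and 39.4 FPKM in C3. CKS2, a small partner of cyclin-dependent kinases, changed least of the list, with 89.7, 91.1, 99.0 and 44.96 FPKM and a day 14 change of -1.14. The 5 members that fell on both days were KIF20A, NUSAP1, ASPM, ANLN and SPC24, and KIF20A, a kinesin of cytokinesis, fell by 1.23 on day 5. With S over C1-C2, 47 of 48 fell on day 14, with a median of -4.56. In footprints 15 of 48 fell on day 5 and 48 of 48 on day 14 (medians -0.90 and -4.39), against 10% and 17% of all genes.

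DNA replication genes followed the same course with smaller sizes. Of 46 on the list 44 were in the table, and of the 42 with enough RNA, 2 fell on day 5 and 37 on day 14 against 2% and 12.8% of all genes, and the medians were -0.42 and -2.72. TYMS, which makes thymidylate, fell on both days, from 145 to 54.5 FPKM and from 75.9 to 6.83 FPKM. MCM6, a subunit of the replicative helicase, was the other, with a day 5 change of -1.13. RRM2, the regulated subunit of ribonucleotide reductase, had 106 FPKM in C1-C2, 59.3 in preS, 75.9 in C3 and 1.36 in S, a day 14 change of -5.80. The 5 that did not fall on day 14 were CCNE1 (0.33), RPA2 (0.12), RFC1 (-0.43), POLD2 (-0.97) and RPA1 (-0.99). With S over C1-C2, 39 of 42 fell. In footprints 15 of 44 fell on day 5 and 38 on day 14, against 10% and 17% of all genes.

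p53 targets rose mostly on day 14, while the cyclin-dependent kinase inhibitors were mixed. Of 6 inhibitors in the table, 2 fell on day 5 in RNA against 2% of all genes. On day 14, 2 rose and 3 fell against 7.4% and 12.8%. In footprints 4 of the 6 fell on both days, against 4.18% of all genes. CDKN1A, the p53-induced inhibitor p21, had 80.8 FPKM in C1-C2, 107 in preS, 172 in C3 and 814 in S. The 2 controls differed by more than 2-fold, and S stood above all 3 other columns, by 2.25 over C3 and 3.33 over C1-C2, while the day 5 change was 0.40. Of 27 p53 targets with enough RNA (28 of the 32 on the list were in the table), 1 rose on day 5 and 14 on day 14, against 1.78% and 7.4% of all genes, and none fell on either day. The medians were 0.12 and 1.02. TNFRSF10D, a decoy receptor for the death ligand TRAIL, was the gene that rose on both days (28.9 to 66.2 and 31.3 to 154 FPKM). GDF15, a stress-induced cytokine, had 15.2, 28.6, 5.47 and 163 FPKM, with 0.91 on day 5 and 4.90 on day 14. DDB2, a damage recognition factor, was not higher in any RAS column, at -0.79 and -0.48. CDKN2A, the locus of p16 and ARF, had 17.2, 14.2, 6.75 and 27.9 FPKM of RNA, but 13.0, 7.05, 8.92 and 6.33 FPKM of footprints. Its RNA change on day 14 was 2.05 over C3 but 0.70 over C1-C2, under 2-fold, and the footprint values were -0.49 and -1.04. CDKN2C, p18, fell on both days and was listed at the floor in S. With S over C1-C2, 17 of the 27 p53 targets rose and 1 fell on day 14.

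Chromatin and lamina genes fell late as well. Of 21 in the table, 2 fell on day 5 and 13 on day 14 in RNA against 2% and 12.8% of all genes, and the medians were -0.41 and -1.64. LMNB1, lamin B1, had 58.3, 25.9 and 32.3 FPKM in C1-C2, preS and C3 and was listed at the floor in S. It fell on both days, as did HMGB2, a chromatin protein, with changes of -1.09 and -4.30. LMNA, the gene of lamins A and C, had 376, 353, 382 and 301 FPKM, with changes of -0.09 and -0.34. The histone variant gene H2AFZ rose on day 14, from 308 to 677 FPKM.

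Secreted inflammatory factors were split between the days. Of 8 interleukins and colony stimulating factors in the table (17 were on the list), 2 rose on day 5 and 6 on day 14 against 1.78% and 7.4% of all genes, with medians of 0.24 and 2.47. IL1B and CSF3 rose on both days, and IL6, LIF, CSF2 and IL32 on day 14 only. IL6 RNA was listed at the floor in C1-C2 and preS and had 1.70 FPKM in C3 and 6.99 in S, and its footprints were 1.33, 1.32, 4.60 and 22.6 FPKM. LIF and CSF2 RNA were listed at the floor in both controls and reached 9.35 and 7.45 FPKM in S, and 1.41 and 1.21 FPKM in preS. IL6, LIF and CSF2 thus passed the filter of 5 FPKM only through S, which fixed their day 14 rise in advance. The day 14 count and median of this list are therefore no evidence of a late rise of the list as a whole. CSF1, the macrophage growth factor, fell on both days, by 1.16 and 2.04. Among the 9 chemokines measured, 5 had enough RNA. The chemokines IL8, CXCL1 and CXCL3, which attract neutrophils, rose on both days in RNA, while CXCL12 and CCL2 fell on both. CXCL3, too, passed the filter of 5 FPKM in RNA only through S, which fixed its day 14 rise in advance. In footprints 1 of 6 chemokines rose on day 5 and 4 on day 14, against 6.64% and 11.6% of all genes, and IL8 was the one that rose on both days. IL8 had 7.14, 27.97, 4.90 and 127 FPKM of RNA, CXCL1 2.66, 6.88, 6.65 and 32.3 FPKM, and CXCL12 55.1, 11.9 and 34.4 FPKM before the floor in S. For CXCL1 the preS and C3 columns were at about the same level, and its day 5 change of 1.37 was about as large as the difference of the controls, 1.32.

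The genes up in RNA on day 14 only were led by C3, CLDN1, TMEM40, MYOZ2 and ICAM1. The RNA of complement component C3 was listed at the floor in the first 3 columns and had 37.0 FPKM in S, and its footprints went to 81.4 FPKM. CLDN1, a tight junction protein, had 10.5 FPKM in C1-C2, 8.03 in preS, 3.69 in C3 and 72.3 in S. ICAM1, an adhesion molecule for leukocytes, had 7.69, 5.98, 18.9 and 218 FPKM, and 24.5, 26.2, 56.8 and 749 FPKM in footprints. In all 5 the S column alone was high. TMEM40 and MYOZ2, a protein of the muscle Z-disc, were listed at the floor in the other 3 columns and had 21.1 and 18.4 FPKM in S. The genes of complement C3, TMEM40 and MYOZ2 thus passed the filter of 5 FPKM in RNA only through S, which fixed their day 14 rise in advance. Their day 5 RNA value is floor over floor, so an early change below the floor cannot be seen.

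Matrix proteases rose in part on both days. Of 15 metalloproteinase and plasminogen genes with enough RNA (16 were in the table), 5 rose on day 5 (MMP1, MMP3, MMP14, PLAU and SERPINB2) and 6 on day 14 against 1.78% and 7.4% of all genes, and 2 fell on day 14. Over C1-C2, 7 rose and 1 fell on day 14. MMP1, interstitial collagenase, had 1289 FPKM in C1-C2, 7186 in preS, 796 in C3 and 2063 in S. It was highest on day 5, and its changes were 2.48 and 1.37, or 0.68 on day 14 over C1-C2, under 2-fold. MMP3, stromelysin, had 399, 2190, 43.4 and 982 FPKM. The controls of MMP3 differed by more than 8-fold, and its day 14 change was 4.5 over C3 and 1.30 over C1-C2. PLAU, urokinase, rose by 1.59 and 1.88, and PLAT, tissue plasminogen activator, by 1.10 on day 14 only. TIMP1, an inhibitor of metalloproteinases, fell by 1.57 over C3 but had a change of 0.83 over C1-C2. Among the growth factors of the EGF and VEGF families, EREG rose on both days, by 1.62 and 1.79.

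Genes induced by ERK signalling rose in part on each day, and 1 of 22 rose on both days in RNA, against 0.989% of all genes. Of 22 ERK feedback and ETS genes, 6 rose on day 5 against 1.78% of all genes, and 4 rose and 1 fell on day 14 against 7.4% and 12.8%. Over C1-C2, 7 rose and 3 fell on day 14. The RNA medians were 0.62 on day 5 and 0.37 on day 14, and the footprint medians were 0.44 on both days. In footprints 6 rose on day 5 against 6.64% of all genes. On day 14, 3 rose and 4 fell against 11.6% and 17%, and none rose on both days, against 2.41% of all genes. The 6 that rose in RNA on day 5 were DUSP6, a phosphatase of ERK, SPRY2 and ERRFI1, inhibitors of receptor signalling, PHLDA1, and the transcription factors ETV1 and EGR1. DUSP6 had 20.8, 57.2, 29.2 and 54.2 FPKM, with 1.46 on day 5 and 0.89 on day 14. SPRY2 had 31.6, 81.7, 39.3 and 64.7 FPKM, with 1.37 and 0.72. Both RAS columns stood above both controls for DUSP6 and SPRY2, and their day 14 changes were under 2-fold over C3 but 1.39 and 1.03 over C1-C2. DUSP4 went the other way, with 0.36 on day 5 and 2.25 on day 14, and DUSP5 had 1.0, just under 2-fold, and 1.95.

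Changes of day 5 only were few. Among genes that kept this class with S over C1-C2 and reached 10 FPKM in both assays, 9 were up and 9 were down. PREX1, an activator of the GTPase Rac, had 6.89 FPKM in C1-C2, 25.6 in preS, 3.51 in C3 and 4.98 in S, and 3.0, 17.3, 1.37 and 1.64 FPKM of footprints. SEMA7A, a semaphorin, had 35.3, 75.0, 47.7 and 38.8 FPKM. CASP1, the caspase that matures interleukin 1 beta, had 4.25, 10.9, 3.75 and 3.31 FPKM. In each of these genes the preS column stood above the other 3. SLC37A2, a sugar phosphate carrier, had 3.43, 10.1, 2.20 and 2.36 FPKM and rose by 3.85 in footprints on day 5. ETV1 RNA rose by 1.23, and its footprint change was -0.25. NTN4, a netrin of basement membranes, had 35.5, 6.92, 22.6 and 32.1 FPKM and GAS6, a ligand of TAM receptors, 187, 58.0, 185 and 195 FPKM. For both, preS alone was low, and for GAS6 the other 3 columns lay within 10 FPKM of one another. LIMS2, PTX3 and SCN9A fell on day 5, with changes of -2.15, -1.19 and -1.03. Footprints of these 5 genes had day 5 changes of -0.84 (GAS6) to -3.03 (LIMS2).

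Opposite changes in RNA were led by TGFB2 and IFI6. TGFB2, a transforming growth factor beta, had 3.50 FPKM in C1-C2, 1.15 in preS, 1.75 in C3 and 11.4 in S, and 10.2, 3.28, 6.68 and 88.8 FPKM of footprints. IFI6, an interferon-induced gene, had 48.5, 17.0, 37.4 and 235 FPKM. In both genes preS was the lowest of the 4 columns and S the highest, and the change went from -1.61 to 2.70 and from -1.51 to 2.65. TGFB2 RNA passed the filter of 5 FPKM only through S, which fixed its day 14 rise in advance. EEF1A2, a translation elongation factor of muscle and neurons, had 14.6, 9.05, 25.02 and 107 FPKM. HSPB6 and TUFT1 had day 5 values of -1.21 and -1.02 and day 14 values of 0.95 and 1.08. In the other direction, TM4SF1, a tetraspanin-like membrane protein, had 25.2, 52.1, 17.3 and 9.06 FPKM, and the neurotensin receptor NTSR1 had 9.34, 14.6, 4.90 and 1.77 FPKM. HIP1 (0.74 and -1.08), CD68 (0.66 and -0.92) and RAB38 (0.85 and -0.64) were of smaller size. EGR1 had 23.5, 53.8, 42.5 and 24.3 FPKM of RNA, so that it rose on day 5 by 1.20 and had -0.81 over C3, but 0.05 over C1-C2 on day 14. For FOS, with 1.52, 2.98, 5.83 and 2.82 FPKM, the fall of 1.05 over C3 was a change of 0.89 over C1-C2. FOS passed the filter of 5 FPKM only through C3, which favoured its fall in advance.

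The matrix genes depended on the choice of control. Of 28 genes for fibrillar collagens and their partners with enough RNA, of 29 in the table, 8 fell on day 5 and 20 on day 14 in RNA, against 2% and 12.8% of all genes, with medians of -0.76 and -1.80. Over C1-C2, 12 of the 28 fell on day 14, 2 rose, and the median was -0.70. In the same genes the run 2 control stood above the run 1 control by a median of 0.92, at least 2-fold in 12 of 28 against 4.66% of all genes. COL1A1, the chain alpha 1 of type I collagen, had 371 FPKM in C1-C2, 150 in preS, 1328 in C3 and 51.6 in S, and S was below either control. COL1A2, the other chain, had 384, 219, 1611 and 531 FPKM and so fell by 1.60 over C3 but had a change of 0.47 over C1-C2. COL5A1 likewise had -1.14 and 0.50. COL6A3 (410, 301, 549 and 83.4 FPKM), THBS1 (415, 158, 805 and 91.8 FPKM) and FN1, fibronectin (915, 577, 722 and 260 FPKM), were lowest in S. COL11A1 rose on day 14 over C3 by 1.14 after -0.86 on day 5, and its value over C1-C2 was 0.43. The fall of matrix genes on day 5 was within run 1 and does not involve C3.

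Footprints of ribosomes moved more widely than RNA on both days, and also between the 2 controls. C3 over C1-C2 passed 2-fold for 18.4% of genes in footprints and 7.71% in RNA, against 16.7% and 3.78% for the day 5 change. The wider movement of footprints was thus not particular to the RAS columns. On day 5, 570 of 8580 genes rose (6.64%) and 862 fell (10%), and on day 14, 991 rose (11.6%) and 1456 fell (17%). The median change was -0.13 on day 5 and -0.11 on day 14. With each change taken relative to its median, 748 rose and 685 fell on day 5, so the share of rising genes among those called went from 39.8% to 52.2%, and on day 14 from 40.5% to 48.6%. Over C1-C2, 1594 rose (18.6%) and 2033 fell (23.7%) on day 14. RNA classes of day 14 carried over into footprints: of 405 genes up in RNA on day 14 only that passed the footprint filter, 245 rose in footprints on day 14 (60.5%) and 47 on day 5, and of 646 down on day 14 only, 505 fell on day 14 (78.2%) and 87 on day 5. Among genes up in RNA on both days, 57 of 82 rose in footprints on day 5 and 67 on day 14, and among those down on both days 89 and 116 of 131 fell. The footprint classes held 566 genes for both days, 1232 for day 14 only, 480 for day 5 only and 430 for opposite changes. Over C1-C2, 185 of 207 up and 301 of 359 down on both days kept their class. For day 14 only it was 438 of 561 up and 469 of 671 down, and for day 5 only 63 of 184 and 146 of 296. Of the opposite ones, 130 of 253 up then down and 100 of 177 down then up did.

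The difference between the days was past 2-fold for a minority of genes. The day 14 change exceeded the day 5 change at least 2-fold upward for 4.05% and downward for 10.2% of genes in RNA, for 13.6% and 16.6% in footprints and for 8.52% and 7.52% in TE. For the mitotic list the median difference was -3.56 in RNA and -3.54 in footprints, and for the p53 targets 0.83 and 1.10. Across genes, the day 5 and the day 14 change correlated with r = 0.61 in RNA, 0.37 in footprints and 0.27 in TE, a description over the genes of 4 columns an assay, which share library and depth.

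More lysosomal genes rose on day 14 than on day 5, and more in footprints than in RNA. In footprints, 7 of 32 rose on day 5 and 21 on day 14 against 6.64% and 11.6% of all genes, with medians of 0.46 and 1.21, and 22 rose over C1-C2. In RNA 4 and 11 of 31 rose, against 1.78% and 7.4%. Footprints of CTSL1, cathepsin L, went from 308 to 794 FPKM on day 5 and from 346 to 2232 FPKM on day 14. Those of LAMP1, a lysosomal membrane protein, were 422, 637, 402 and 1083 FPKM. GLB1, the acid beta-galactosidase used as a senescence stain, had 30.3, 48.0, 55.9 and 131 FPKM of footprints, and its RNA changes were 0.24 and 0.58. GUSB was the exception, with an RNA fall of 1.36 and a footprint value of -0.93 on day 14.

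Genes of sterol synthesis and uptake rose in part on both days. In footprints 10 of 23 rose on day 5 and 9 on day 14 against 6.64% and 11.6% of all genes, 7 rose on both days, and the medians were 0.91 and 0.71. In RNA 3 and 6 of 23 rose, against 1.78% and 7.4%. DHCR7, the last enzyme of cholesterol synthesis, had 36.8, 110, 38.9 and 122 FPKM of footprints, with both RAS columns above both controls. FDFT1, squalene synthase, rose on both days in footprints (1.21 and 1.19) and in RNA (1.07 and 1.23).

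Interferon-induced genes fell on day 14 in part. Among the 33 measured, 23 had enough RNA, of which 1 rose and 3 fell on day 5 against 1.78% and 2% of all genes, and 3 rose and 9 fell on day 14 against 7.4% and 12.8%. IFIT2 had 9.57, 8.31, 3.70 and 1.36 FPKM, and PSMB9, an immunoproteasome subunit, 5.80, 4.13 and 6.36 FPKM before the floor in S. ISG15, IFI6 and IFI27 rose on day 14, by 1.77, 2.65 and 3.08, of which ISG15 had only 0.60 over C1-C2. IFI27 passed the filter of 5 FPKM only through S, which fixed its day 14 rise in advance.

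The integrated stress response and ribosome biogenesis lists changed with the control. Of 23 stress response genes, 7 rose over C3 on day 14 and 3 over C1-C2, against 7.4% and 12.3% of all genes, and the medians were 0.45 and -0.26. TRIB3, a pseudokinase, had 34.1, 30.7, 7.49 and 17.7 FPKM, which is a rise of 1.24 over C3 and a change of -0.95 over C1-C2. ATF3 and STC2 rose over either control, ATF3 from 2.29 in C3 to 10.4 FPKM in S. ATF3 passed the filter of 5 FPKM only through S, which fixed its day 14 rise in advance. Of 38 ribosome biogenesis genes, 1 fell over C3 and 14 over C1-C2 on day 14, against 12.8% and 17.8% of all genes. On day 5 none fell, against 2% of all genes.

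Which day had more TE changes depended on the control and the filter. On day 5, 290 of 7661 genes rose (3.79%) and 570 fell (7.44%), and on day 14, 188 rose (2.45%) and 459 fell (5.99%). The medians were -0.17 and -0.06. Relative to them, 457 rose and 385 fell on day 5, so the share of rising genes among those called went from 33.7% to 54.3%, and on day 14 (247 and 376) from 29.1% to 39.6%. Over C1-C2, 569 rose (7.43%) and 673 fell (8.78%) on day 14, a share of 45.8% and more genes than on day 5. With a filter at 20 FPKM, 49 rose and 212 fell on day 5 and 73 rose and 261 fell on day 14. Few genes had the same TE change on both days: 16 were up and 74 down, 14 and 43 of which kept the class over C1-C2. On day 14 only, 122 were up and 255 down, on day 5 only 191 and 353, and 211 changed in opposite directions, of which 115 went up then down. Over C1-C2, 62 and 109 kept the class of day 14 only, and 75 and 213 that of day 5 only. Of the opposite ones, 39 of 115 up then down and 29 of 96 down then up kept their class. Where both opposite changes reached 2-fold, 3 of 26 did.

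Single TE changes came from footprints in some genes and from RNA in others. On day 5, footprints of MRPS36, of the mitochondrial ribosome, were 17.2 FPKM against 81.7 in C1-C2, 76.0 in C3 and 75.5 in S, with RNA of 9.54 to 13.4 FPKM in all 4 columns. MED30, SKA2, PRKRA and TIA1 were also down in TE on day 5 only, with changes of -1.69 (TIA1) to -2.93 (MED30). TYK2, a Janus kinase, PLEKHO2, DVL1, SELENBP1 and C8orf55 rose in TE on day 5 only, by 1.08 (DVL1) to 1.47 (SELENBP1). For C8orf55 it was RNA that fell on day 5, with a change of -1.37 against -0.18 in footprints. ATP11B, TTC17 and DNAJC10 rose in TE by 1.14 to 1.22 on day 14 only. THOC6, COX6A1, CCDC85B, NUPR1 and C19orf60 fell on day 14 only, by 1.76 to 2.69. For COX6A1, a subunit of cytochrome c oxidase, RNA went from 41.4 to 100 FPKM and footprints from 183 to 107 FPKM. TMTC1, FAT1, CLCF1, SLC35B3 and C7orf58 rose in TE on both days, by 1.06 to 1.45 on day 14. Footprints of TMTC1, SLC35B3, C7orf58 and CLCF1 in C1-C2 were near the floor, at 1.41, 1.79, 2.67 and 2.80 FPKM. Their day 5 rises are therefore uncertain. FAT1 had -1.10 in RNA and 0.12 in footprints on day 5, and TMTC1 had -2.15 in RNA and -0.69 in footprints on day 14.

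TE in opposite directions was seen for SLC7A11 and DNAJC19 among others. Footprints of SLC7A11, the cystine transporter, were 73.6, 33.7, 29.2 and 138 FPKM at RNA levels of 20.1, 14.1, 9.82 and 17.8 FPKM, and its TE change went from -0.62 to 1.39. Footprints of DNAJC19, a mitochondrial import factor, were 14.1, 2.86, 14.1 and 28.5 FPKM, with RNA of 9.43 to 12.2 FPKM. C1GALT1, PTPLB and TTC14 had day 5 TE values of -0.70, -1.05 and -0.78 and day 14 values of 1.28, 0.93 and 1.19. In the other direction EGR1, C20orf24, TRADD and STK11 rose on day 5 by 1.17 to 1.28 and fell on day 14 by 1.02 to 1.21, and POLR2F had 0.60 and -1.77. Over C1-C2 the day 14 TE changes of C20orf24, TRADD and POLR2F were -0.64, -0.63 and -0.61, under 2-fold. Those of EGR1 and STK11 were -1.88 and -2.06. EGR1 footprints were 18.5, 98.4, 19.4 and 5.22 FPKM.

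Ribosomal protein genes had TE values below 0 on both days, while in RNA none reached 2-fold on day 5 and 1 rose on day 14. Of 81, 79 were below 0 on day 5 and 81 on day 14, 8 and 16 fell (7.44% and 5.99% of all genes fell), and the medians were -0.62 and -0.65, against -0.17 and -0.06 for all genes. The RNA medians were 0.19 and 0.12, and of all genes 3.78% passed 2-fold in RNA on day 5 and 7.4% rose on day 14. RPS12 had RNA of 1082, 1281, 888 and 952 FPKM and footprints of 594, 454, 943 and 358 FPKM, with TE changes of -0.63 and -1.50. RPS28 had 0.13 on day 5 and -1.72 on day 14. RPL7L1, which the list includes but which is a ribosomal protein L7-like gene, had -1.41 and -0.59. Over C1-C2 the day 14 median was -0.61, and 19 genes fell. Reads of ribosomal protein genes can be shared with near-identical copies, so single genes are uncertain.

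On day 14 the 10 lowest TE changes of all genes tested belonged to histone genes. Histone mRNAs of S phase usually end without a poly(A) tail, so the RNA columns, made from poly(A) RNA, hold only their polyadenylated part while footprints come from all of them. TE for these genes is therefore not a rate of translation per mRNA. Of 13 in the table, 12 had enough RNA, and 7 rose on day 5 and 11 on day 14 against 1.78% and 7.4% of all genes, with medians of 1.11 and 2.81. HIST2H2BE, HIST1H2BC and HIST1H2BG reached 5 FPKM of RNA only in S, so the filter favoured their day 14 rise in advance. The day 14 RNA count and median of the list rest in part on this filter. Of 13 in footprints, 9 fell on day 5 and 12 on day 14 against 10% and 17% of all genes, with medians of -1.07 and -3.86. HIST1H4H, an H4 gene, had RNA of 1.06, 7.07, 2.35 and 31.4 FPKM and footprints of 1346, 606, 1484 and 75.0 FPKM. HIST1H1C, the linker histone H1.2, had RNA of 20.0, 28.9, 10.98 and 88.2 FPKM and footprints of 816, 267, 645 and 82.2 FPKM. In both genes RNA was highest and footprints lowest in S. HIST3H2A had the smallest footprint change on day 14 (-0.94). Among the 10 with TE values, 8 fell on day 5 and 10 on day 14, against 7.44% and 5.99% of all genes. HIST1H4H (-3.89 and -8.05), HIST2H2BE (-2.91 and -7.12), HIST1H2BC (-2.73 and -7.07), HIST1H2BG (-2.46 and -6.98) and HIST1H2AC (-2.50 and -4.93) led the genes down on both days. The medians were -2.40 and -5.86, and -5.60 over C1-C2. The list was set up after these values had been seen, and histone genes are near-identical in sequence, so reads may be placed on the wrong copy.

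**Figure D2:**
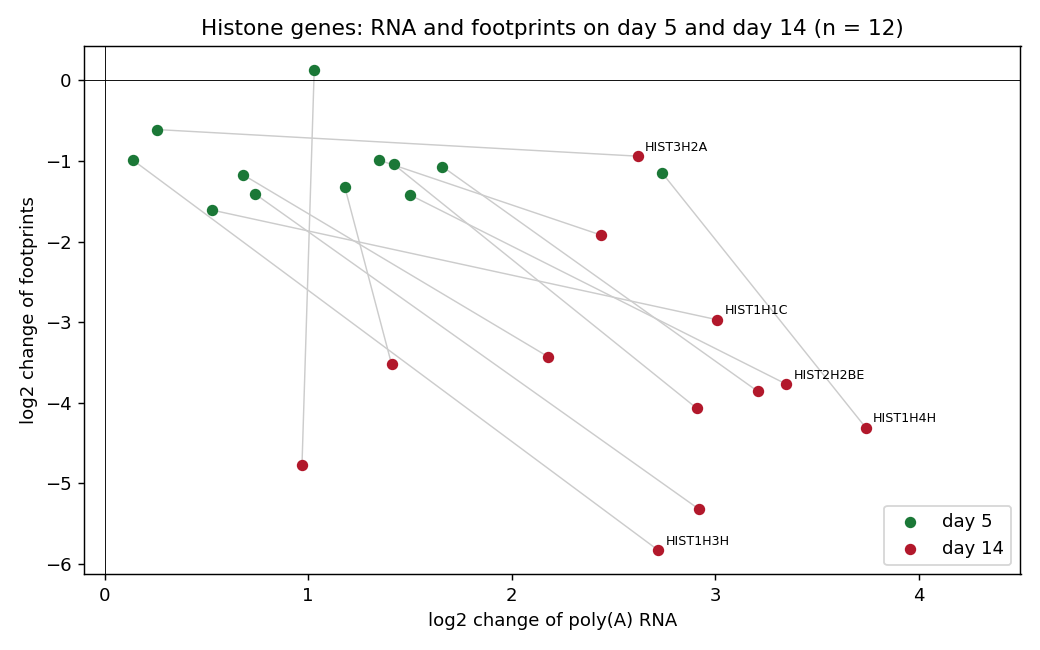
Log2 change of poly(A) RNA on the x axis and of footprints on the y axis for 12 histone genes, day 5 in green and day 14 in red, with a line joining the 2 days of a gene. From day 5 to day 14 most points move towards more RNA (median 1.11 to 2.81) and fewer footprints.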

How the data were processed

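RNA-Seq and Ribo-Seq were measured in 11 of 17 samples of BJ fibroblasts. The authors aligned reads with Bowtie (version not given in the sources used here) to 1 transcript per protein-coding gene, kept unique matches, and deposited FPKM values with a floor of 1. The processing notes name hg19. C1 and C2 were pooled into 1 column, as were the RNA-Seq libraries of preS. RNA-Seq of the first run was paired-end and that of the second single-end. Counts per gene are not in this table, so no interval can be given. The study's supplement lists the reads of each library. Outside ribosomal RNA, each Ribo-Seq library used here held fewer reads than each RNA-Seq library.

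Log2 ratios were computed from the deposited FPKM with python 3.11.15, numpy 2.4.6, pandas 2.3.3 and matplotlib 3.10.9. A gene entered with at least 5 FPKM in 1 of the 4 columns of an assay, and for TE also with all 8 values above 1. Changes were called at 2-fold, with no test. Scripts were tested on simulated data. Named genes were the 5 with the largest difference between the days in each class (for both days, the largest smaller change), among those that kept their class with S over C1-C2 and reached 10 FPKM in both assays, with 2 to 6 members of each gene list that define its role or lie furthest from its median. The members and lists were chosen with earlier results of these data known. Some genes that the rule names are not reported here. Names outside this rule were chosen after their values were seen. Groups came from sample titles. Alternatives were S over C1-C2, a pseudocount of 1 in place of the floor, filters of none and 20 FPKM, a threshold of 3-fold, and centring on the median.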

Additional observations from a re-analysis of the deposited data

Results flagged for a closer look

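Changes of opposite sign on the 2 days were marked for a closer look. The difference, the day 14 change minus the day 5 change on the log2 scale, was not tested, because each change rests on 1 column a group. In RNA it was -2.11 for NTSR1, -1.98 for TM4SF1, -1.82 for HIP1, -1.58 for CD68, -1.48 for RAB38, -2.0 for EGR1 and -2.02 for FOS, which were higher than their control on day 5 and lower on day 14. It was 4.31 for TGFB2, 4.16 for IFI6, 2.79 for EEF1A2, 2.16 for HSPB6, 2.10 for TUFT1 and 2.00 for COL11A1, which were lower on day 5 and higher on day 14. In TE it was -2.50 for C20orf24, -2.43 for TRADD, -2.38 for POLR2F, -2.30 for EGR1 and -2.19 for STK11, and 3.50 for DNAJC19, 2.01 for SLC7A11, 1.98 for C1GALT1, 1.98 for PTPLB and 1.96 for TTC14. Day and run cannot be told apart in these differences. FOS did not keep its sign on day 14 over C1-C2, and EGR1 RNA was at 0.05 there. In TE, C20orf24, TRADD and POLR2F kept their sign there but were under 2-fold, at -0.64, -0.63 and -0.61.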

How the results depend on the processing

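No paired analysis was possible because the columns pool replicates or hold 1 library, and for the same reason leaving out a replicate could not be run. Calls are by size, the deposited values hold no read counts per gene, and FPKM values near the floor of 1 hide changes of low genes. In RNA, the 219 genes called on both days became 139 with a filter at 20 FPKM and 67 at 3-fold, the 1103 of day 14 only became 1894 with S over C1-C2, 566 and 387, the 52 of day 5 only became 23 and 13, and the 46 opposite ones became 80 with S over C1-C2 and 17 at 20 FPKM. S over preS passed 2-fold for 2057 genes against 1193 for the difference between the days. In footprints, 566 became 312 and 162, 1232 became 1916, 786 and 482, 480 became 200 and 146, and 430 became 169, in the same order of classes and settings. In TE, 90 became 245, 36 and 12, 377 became 633, 213 and 30, 544 became 157 and 113, and 211 became 53. With S over C1-C2, 12 matrix genes fell in place of 20, 14 ribosome biogenesis genes in place of 1, and 3 stress response genes rose in place of 7. The day 14 RNA change of 5 named genes reversed there: COL1A2 was 0.47 in place of -1.60, COL5A1 0.50 in place of -1.14, FOS 0.89 in place of -1.05, TIMP1 0.83 in place of -1.57 and TRIB3 -0.95 in place of 1.24. The cause was not tested.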

Other observations

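Further gene lists of these cells were described by the same counts. Of 19 contractile genes, 4 fell on day 5 and 5 on day 14 in RNA, against 2% and 12.8% of all genes, with medians of -0.71 and -0.55. Over C1-C2, 3 rose and 3 fell on day 14, with a median of -0.10. Of 20 genes of glycolysis, none was called in RNA on day 5, where 3.78% of all genes were. On day 14, 2 of the 20 fell in RNA, a share near the 12.8% of all genes. Of 19 ER chaperone genes, none rose on day 5 and 1 on day 14 in RNA, against 1.78% and 7.4% of all genes. Their median TE change was -0.02 on day 5 and 0.60 on day 14, against -0.17 and -0.06 for all genes. None of 21 translation factors with a 5' TOP sequence was called in TE on either day, where 11.2% and 8.45% of all genes were. Their TE medians were -0.29 and -0.19. Of 14 genes of the TGF-beta and Notch pathways with enough RNA, 2 fell on day 5, against 2% of all genes. On day 14, 2 rose and 7 fell, where 7.4% and 12.8% of all genes did. With S over C1-C2, 3 rose and 4 fell.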
